A study of Mus musculus with 8 samples.

Results

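The genes described here make and load the MHC class I molecule in mouse, and they were measured in bone marrow derived myeloid cells of the brain after an experimental stroke. The set holds 10 genes: the heavy chain genes H2-K1, H2-D1 and H2-T22, the light chain gene B2m, the transport and loading genes Tap1, Tap2 and Tapbp, the immunoproteasome genes Psmb8 and Psmb9, and the regulator Nlrc5. Every gene probe that carries one of these names, directly or through its RefSeq accession, was taken, whatever its signal. This gave 12 probes on 20 spots per array, out of 60273 gene probes with 47242 distinct names.

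MHC class I molecules show short peptides from inside the cell to CD8 T cells and to inhibitory receptors of NK cells. The proteasome cuts proteins into peptides, the Tap1-Tap2 transporter pumps them into the endoplasmic reticulum, and tapasin, the product of Tapbp, holds empty class I molecules next to that transporter until a peptide is bound. Interferon exchanges the catalytic subunits of the proteasome for immunosubunits such as those encoded by Psmb8 and Psmb9, and Nlrc5 drives transcription of class I genes in the nucleus. Blood-derived macrophages that enter injured tissue are known to express this machinery.

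The tested cells came from chimeras in which wild-type mice had received DsRed-positive marrow of donors without Selplg (Psgl1-/-, replicates 5 to 8), and the cells they were set against came from wild-type recipients of DsRed-positive marrow with intact Selplg (Psgl1+/+, replicates 1 to 4). Selplg encodes PSGL-1, the leukocyte ligand of the selectins. In both groups a 30 min occlusion of the middle cerebral artery was followed by reperfusion, ischemic brain tissue was taken 7 days later, and live donor cells with CD11b and high CD45 but without Ly6G and CD3 were sorted, so that host cells, which lack DsRed, were gated out. The question is which transcripts of brain-entering donor cells depend on PSGL-1 in the marrow. The labels give neither the animals per sample nor their strain, age or sex, so a p-value here measures spread among 8 samples, which may be technical.

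Each sample was hybridised to 1 single-colour array, and between 76.1% and 88.2% of gene spots were well above background. Signals are given as log2 of the scanner's processed intensity after each array was scaled to a common 75th percentile, here called log2 scaled signal. All 10 monocyte and macrophage markers, Itgam, Ptprc, Csf1r and Adgre1 among them, were well above background on all 8 arrays. The same held for 8 microglia markers and for 10 tested neuronal, astrocyte and endothelial markers, so detection alone does not identify the cells. The Selplg probe read 13.25, 13.45, 13.16 and 12.88 on arrays labelled Psgl1-/-, against 13.79, 12.68, 13.05 and 15.74 on arrays labelled Psgl1+/+, and the groups overlapped. The sources used here do not give the part of Selplg that the donors lack, so this probe does not check the labels, and every direction below rests on them. The median difference over all 42430 tested genes, Psgl1-/- minus Psgl1+/+, was -0.33 on the log2 scale, and each difference below is to be read against that shift.

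No class I presentation gene differed between the groups beyond the spread of the arrays. All 10 genes passed the filter on dim probes, which asked for a signal well above background on 4 or more of 8 arrays, and 0 of 10 passed limma's test at a Benjamini-Hochberg adjusted p of 0.05 (adjusted p from 0.539 for H2-T22 to 0.983 for H2-D1). At an unadjusted p of 0.05 the count was also 0 of 10, and in 0 of 10 genes did the groups lie apart without overlap. Over all tested genes, 0.00236% passed the adjusted threshold (0.00236% higher and 0% lower), 10.8% had an unadjusted p under 0.05, and 11.5% had groups without overlap (0.648% higher and 10.8% lower). Taken probe by probe, 0 of 11 tested class I probes passed the adjusted threshold, against 0.0175% of all tested probes. Of the genes under that unadjusted threshold, 687 were higher and 3901 lower in Psgl1-/- arrays, while with cyclic loess scaling 1247 were higher and 797 lower.

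The differences of the 10 genes were positive for 6 and negative for 4, with a median of 0.24, whereas 31% of all tested genes had a positive difference. Other scalings moved this split. It was 9 positive with quantile normalization, with cyclic loess and in the deposited value table, and 8 positive with scaling to the array median. Relative to the median of all tested genes, 9 of 10 differences lay above it, Tap1 being the exception, and the count was also 9 of 10 under each of those scalings. It rested on single arrays, with 5 of 10 above that median without Psgl1+/+ replicate 1 and 5 of 10 without Psgl1-/- replicate 7. The 95% intervals of all 10 differences included 0, and their half-widths ran from 0.95 to 3.50 on the log2 scale. For 0 of 10 genes did the interval stay within a 2-fold change in either direction, and for 6 of 10 it reached beyond a 4-fold change. The half-width was larger than a 2-fold change in 8 of 10 genes and larger than a 4-fold change in 4 of 10, H2-T22, Tapbp, Psmb9 and Nlrc5.

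**Figure D1:**
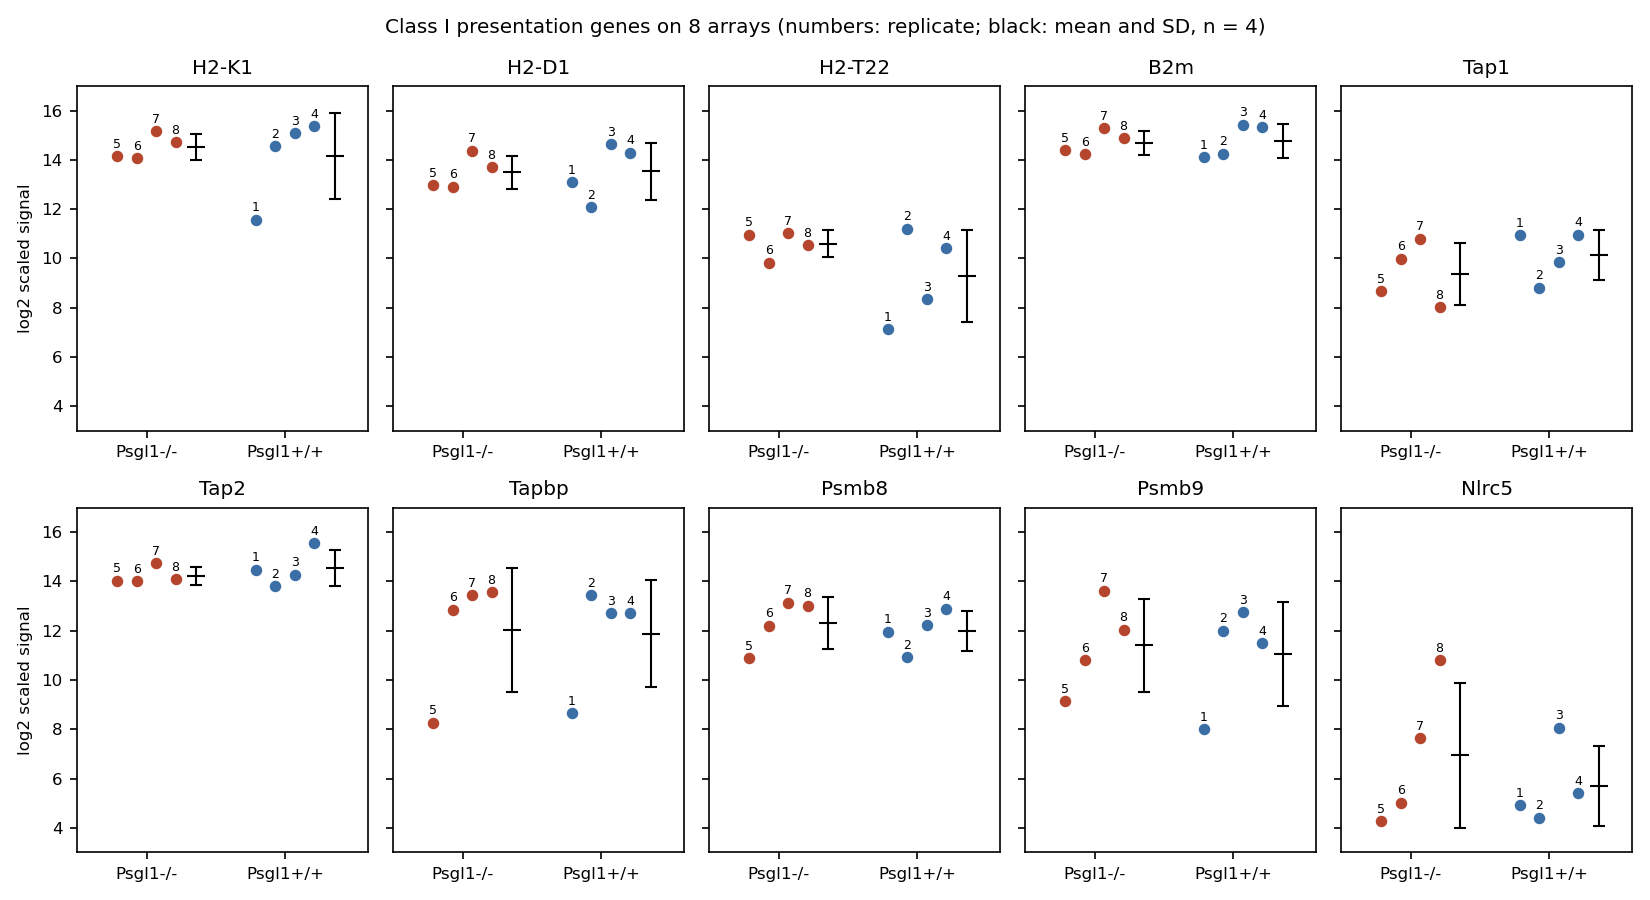
Log2 scaled signal (vertical axis) of each of the 10 genes on 4 Psgl1-/- arrays (red, left) and 4 Psgl1+/+ arrays (blue, right). Numbers beside points are replicate numbers and black bars are the mean and SD (n = 4). The groups overlap in every panel, and Tapbp splits into 2 low and 6 high arrays that belong to both groups.

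**Figure D2:**
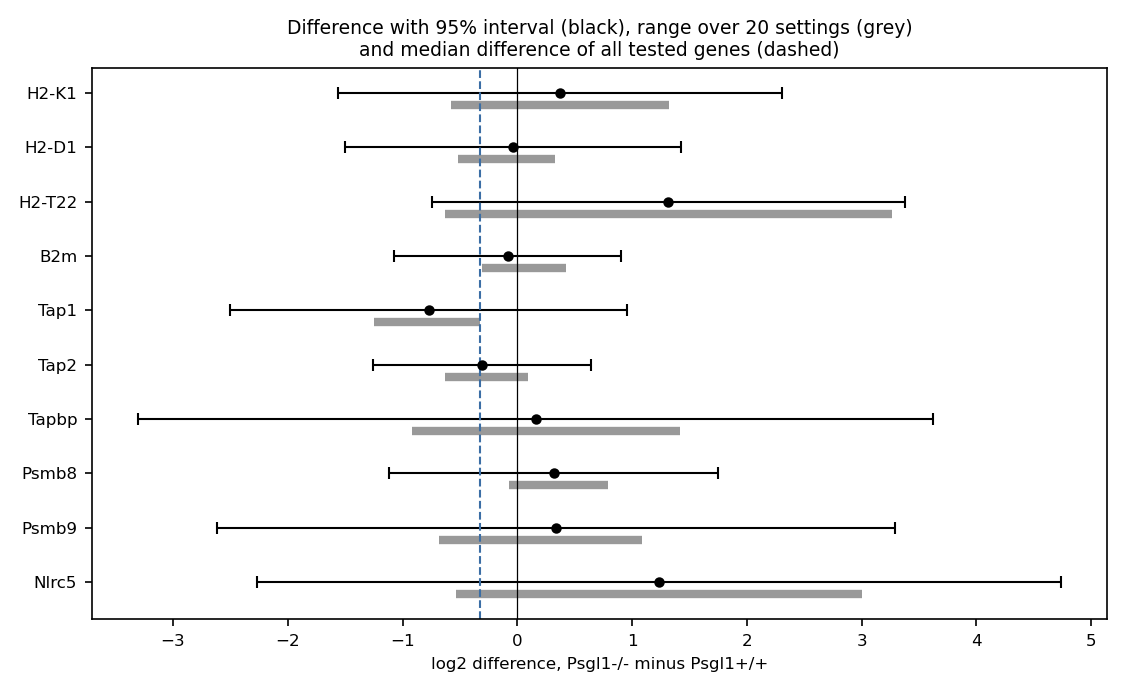
Log2 difference of each gene, Psgl1-/- minus Psgl1+/+ (horizontal axis), with its 95% interval from limma (black) and the lowest and highest value over 20 processing settings (grey). The dashed line is the median difference of all tested genes, -0.33. All 10 intervals cross 0.

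The heavy chains form the peptide groove. H2-K1, a classical heavy chain that presents peptides to CD8 T cells, was read by a probe printed on 5 spots (NM_001001892.2). Its log2 scaled signal was 14.15, 14.06, 15.16 and 14.72 on Psgl1-/- replicates 5 to 8, against 11.57, 14.56, 15.09 and 15.37 on Psgl1+/+ replicates 1 to 4. A single array, Psgl1+/+ replicate 1, lay below all others, and the remaining 7 arrays overlapped between the groups. The difference was 0.37 (SE 0.83, adjusted p = 0.861, limma), and without that array it was -0.49.

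H2-D1, the other classical heavy chain measured here, read 12.98, 12.91, 14.37 and 13.70 on Psgl1-/- arrays, against 13.10, 12.09, 14.63 and 14.30 on Psgl1+/+ arrays. In both groups the same kind of spread was seen, with arrays near 13 and arrays above 14. The difference was -0.04 (SE 0.63, adjusted p = 0.983, limma), and its sign turned with quantile normalization (0.25), with cyclic loess (0.32) and with the array median (0.11). Of these scalings, the array median alone moves the differences of all genes by the same amount. Relative to the median of all genes it was 0.29, and above that median in 18 of 20 settings. The probe was checked for shared sequence because heavy chain genes are near copies of each other. A run of 47 of its 54 bases also lies in a probe for H2-L, a further classical heavy chain gene, and that run stands in capitals in both lines, which are shown because these spots may bind RNA of either gene.
H2-D1 probe: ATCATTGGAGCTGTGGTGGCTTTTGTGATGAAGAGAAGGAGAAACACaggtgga
H2-L probe: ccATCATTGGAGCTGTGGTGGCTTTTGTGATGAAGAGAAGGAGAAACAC

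The H2-L probe with the shared run read 13.15, 12.94, 14.20 and 13.62 on Psgl1-/- arrays, against 12.98, 11.92, 14.45 and 14.33 on Psgl1+/+ arrays. Array by array its values followed those of the H2-D1 probe, which by itself does not show that either probe binds both RNAs. Because of the shared run, the signals of H2-D1 and H2-L cannot be told apart with these probes. A second H2-L probe without such a run had a difference of -0.12 (SE 0.48) between the groups. Both H2-L probes overlapped between the groups.

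H2-T22, a nonclassical heavy chain that gamma-delta T cells recognise in mouse, read 10.97, 9.83, 11.04 and 10.54 on Psgl1-/- arrays, against 7.12, 11.21, 8.36 and 10.42 on Psgl1+/+ arrays. The Psgl1-/- arrays lay close together, while the Psgl1+/+ arrays fell into 2 low and 2 high ones. Its difference of 1.32 (SE 0.89, adjusted p = 0.539, limma) had the smallest p of the 10 genes and a 95% interval from -0.75 to 3.38. Within the slide row that held Psgl1-/- replicates 5 and 7 and Psgl1+/+ replicates 1 and 3 the difference was 3.26, and within the other row it was -0.63. The annotation of this probe in the scanner files also lists transcripts of H2-T10, a near copy, so the reading may hold both genes.

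B2m encodes the light chain that pairs with the class I heavy chains. Its RefSeq probe (NM_009735.3) read 14.40, 14.22, 15.29 and 14.87 on Psgl1-/- arrays, against 14.10, 14.25, 15.43 and 15.33 on Psgl1+/+ arrays. This was the narrowest spread of the 10 genes over all arrays, 2.51-fold between the lowest and the highest array. The difference was -0.09 (SE 0.43, adjusted p = 0.942, limma), with an interval from -1.07 to 0.90, and its sign turned with quantile normalization (0.38), cyclic loess (0.34) and the array median (0.062). Relative to the median of all genes it was 0.24, and above that median in 20 of 20 settings.

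A second B2m probe, made to the cDNA clone AK086184, behaved otherwise. It lies on the plus strand at chr2:121974599-121974658 in the mm9 build of the files, and the 57 bases below are shown because the probe carries the name B2m but did not follow the RefSeq probe. The sequence has no capitals, since no part of it was singled out.
B2m clone probe: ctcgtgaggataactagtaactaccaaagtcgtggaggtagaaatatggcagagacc

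The clone probe read 11.92, 8.21, 11.62 and 3.13 on Psgl1-/- arrays, against 3.35, 4.28, 13.68 and 12.62 on Psgl1+/+ arrays, and it was well above background on 3 arrays of each group. Its lowest and highest arrays were 1493-fold apart, and 99.8% of tested probes varied less within the groups. The difference was 0.24 (SE 3.01, probe-level adjusted p = 0.978, limma). No value of B2m below uses this probe, apart from the mean over probes among the alternative settings.

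**Figure D3:**
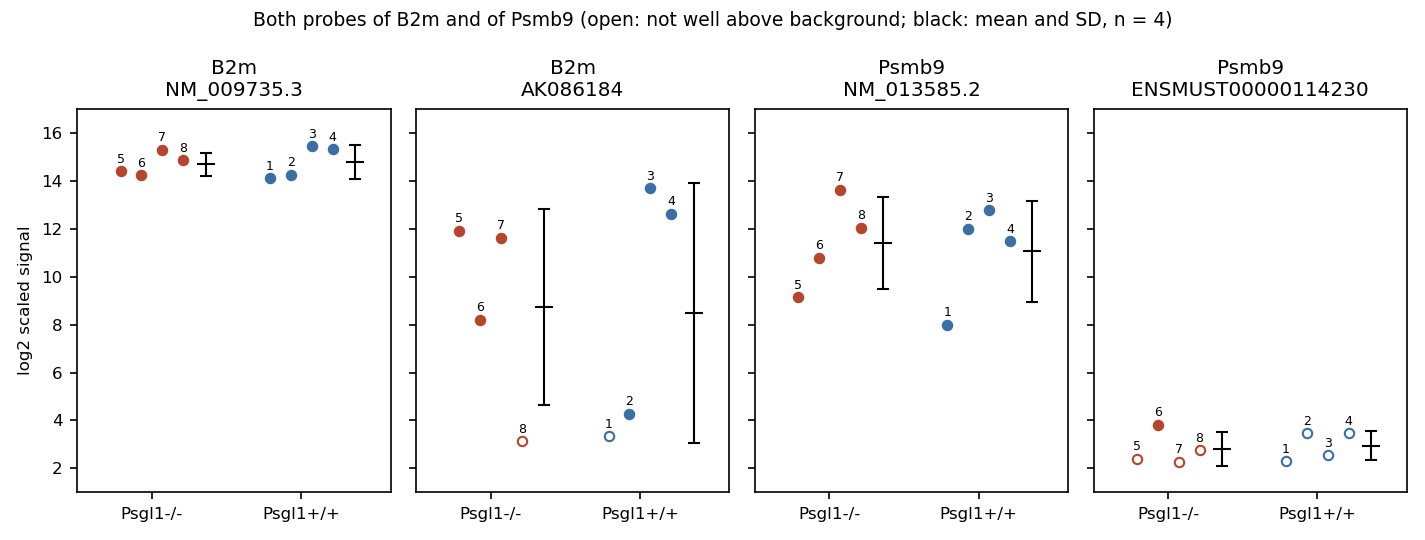
Log2 scaled signal (vertical axis) of both B2m probes and both Psmb9 probes on 4 Psgl1-/- arrays (red, left) and 4 Psgl1+/+ arrays (blue, right), with replicate numbers and the mean and SD (n = 4) in black. Open points were not well above background. The B2m clone probe spans 3.13 to 13.68 while the RefSeq probe stays between 14.10 and 15.43, and the second Psmb9 probe is well above background on 1 array only.

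Transport and loading into the endoplasmic reticulum were read by 3 genes with a probe each. Tap1, a subunit of the peptide transporter, read 8.66, 9.99, 10.81 and 8.02 on Psgl1-/- arrays, against 10.94, 8.82, 9.85 and 10.96 on Psgl1+/+ arrays. The lowest array was of the Psgl1-/- group and the highest of the Psgl1+/+ group, with overlap in between. The difference was -0.77 (SE 0.75, adjusted p = 0.664, limma). Tap1 was the one member whose difference stayed negative in all 20 settings, from -1.25 to -0.32, and in none of them did its adjusted p fall under 0.545. Of these settings, 3 repeat the main difference by construction. Relative to the median of all genes the difference was -0.45, and it ran from -0.96 to -0.012 over the 20 settings. Part of the constant sign is thus the shift of all genes.

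Tap2, the partner subunit, read 14.03, 14.00, 14.74 and 14.10 on Psgl1-/- arrays, against 14.47, 13.82, 14.28 and 15.54 on Psgl1+/+ arrays. Psgl1-/- replicate 7 and Psgl1+/+ replicate 4 stood above the rest of their own groups. The difference was -0.31 (SE 0.41, adjusted p = 0.759, limma), close to the median of all genes, and it was 0.028 without Psgl1+/+ replicate 4. With quantile normalization it was 0.082 and with cyclic loess 0.091.

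Tapbp, which encodes tapasin, was printed on 5 spots per array. It read 8.26, 12.85, 13.45 and 13.56 on Psgl1-/- arrays, against 8.65, 13.43, 12.71 and 12.70 on Psgl1+/+ arrays. In each group 1 array, Psgl1-/- replicate 5 and Psgl1+/+ replicate 1, lay more than 4 log2 units under the other 3, and the others were within 0.73 of each other. The 5 spots of an array agreed to an SD between 0.036 and 0.10, so the low readings were shared by all spots of those arrays. The difference was 0.16 (SE 1.49, adjusted p = 0.969, limma), with a 95% interval from 10-fold lower to 12.3-fold higher in Psgl1-/- arrays.

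The H2-K1 spots agreed as closely, to an SD between 0.029 and 0.077 within an array, with 2 spots left out as outliers. Both low Tapbp arrays lay in the same slide row, the one that holds replicates 1, 3, 5 and 7, and the mean of Tapbp was 2.37 higher in the other row. Replicates 3 and 7 of the same row were not low, at 12.71 and 13.45. Each row holds 2 arrays of each group, so a row block leaves the difference of Tapbp at 0.16 by construction, and it was 0.14 within the row of replicates 2, 4, 6 and 8 and 0.17 within the other.

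The immunosubunits replace the constitutive catalytic subunits of the proteasome. Psmb8, the chymotrypsin-like immunosubunit, read 10.88, 12.20, 13.14 and 13.02 on Psgl1-/- arrays, against 11.96, 10.92, 12.22 and 12.89 on Psgl1+/+ arrays. The highest and the lowest array were both of the Psgl1-/- group. The difference was 0.32 (SE 0.62, adjusted p = 0.839, limma), and it was -0.040 without Psgl1+/+ replicate 2.

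Psmb9, an immunosubunit whose gene lies head to head with Tap1, had a RefSeq probe (NM_013585.2) above background on every array. Its 49 bases are shown because the values of Psmb9 rest on them, apart from the mean over probes among the alternative settings. No part is in capitals.
Psmb9 probe: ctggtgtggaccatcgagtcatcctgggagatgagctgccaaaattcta

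This probe read 9.15, 10.79, 13.63 and 12.04 on Psgl1-/- arrays, against 7.99, 12, 12.76 and 11.49 on Psgl1+/+ arrays. Psgl1-/- replicate 5 and Psgl1+/+ replicate 1 were the lowest of their groups, as they were for Tapbp. The difference was 0.34 (SE 1.27, adjusted p = 0.921, limma), and it was -0.68 without Psgl1+/+ replicate 1. A second probe, to transcript ENSMUST00000114230 on the minus strand at chr17:34322762-34322821 in mm9, was well above background on 1 of 8 arrays and was not tested.

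The exchange of subunits was read as the signal of an immunosubunit minus that of its constitutive counterpart on the same array, of which only the change between groups can be interpreted. Psmb8 minus Psmb5 differed by -2.26 in the mean, Psgl1-/- minus Psgl1+/+ (exact two-sided permutation p = 0.143, adjusted p = 0.429 over 3 pairs, n = 4 each). Psmb5 was well above background on only 2 Psgl1-/- arrays and 1 Psgl1+/+ array, so that pair rests on dim readings, and it was -0.71 with normexp and from -3.17 to -1.42 when each array was left out in turn. Psmb9 minus Psmb6 differed by -1.42 (exact permutation p = 0.486, adjusted p = 0.729, n = 4 each), and by -2.85 to -0.60 with 1 array left out. Psmb10 minus Psmb7 differed by 0.23 (exact permutation p = 0.83, unchanged by the adjustment, n = 4 each). The smallest p that 4 arrays against 4 allow is 0.0286, and none of the 3 pairs reached it.

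Nlrc5, the class I transactivator, read 4.28, 5.02, 7.64 and 10.80 on Psgl1-/- arrays, against 4.92, 4.41, 8.07 and 5.40 on Psgl1+/+ arrays. It was well above background on all 8 arrays, but its low readings were close to the floor. The lowest signal called well above background was 4.09 on Psgl1-/- replicate 5, 4.32 on Psgl1+/+ replicate 1 and 3.54 on Psgl1+/+ replicate 2. Psgl1-/- replicate 8 stood far above the other 7 arrays, and a range of 91.9-fold was covered in all. The difference was 1.24 (SE 1.51, adjusted p = 0.738, limma), and it was -0.054 without that array. On that array 8 of the 10 genes, Nlrc5 included, lay above their own mean. Tapbp had its highest reading there (13.56) and Tap1 its lowest (8.02), while H2-K1 (14.72) and B2m (14.87) were between their extremes.

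Arrays of either group differed widely in the mean level of the class I genes. The mean deviation of the 10 genes from their own means was -1.05, -0.24, 1.10 and 0.71 on Psgl1-/- replicates 5 to 8, against -1.35, -0.28, 0.51 and 0.61 on Psgl1+/+ replicates 1 to 4. On Psgl1-/- replicate 7 all 10 genes lay above their own mean, while Psgl1+/+ replicate 1 gave the lowest reading of 4 genes and Psgl1-/- replicate 5 that of 3. Tap1 went another way on some arrays, at 8.02 on Psgl1-/- replicate 8 and at 10.94 on Psgl1+/+ replicate 1. The medians of all tested genes, which scaling to a common percentile holds close together, deviated by -0.41 to 0.26. The mean deviation of the 10 monocyte and macrophage markers moved with the class I genes, at -0.62, -0.96, 1.79 and 0.78 on Psgl1-/- arrays, against -1.32, -1.37, 0.95 and 0.75 on Psgl1+/+ arrays. The part of that movement in the class I readings was not tested, and a smaller share of macrophages cannot be told apart from less RNA per cell.

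The spread within the groups was wide for most of these genes. Over all tested probes the median within-group SD was 0.78 log2 units (quartiles 0.43 and 1.55), and 9 of the 11 tested class I probes were above that median. B2m (0.60) and Tap2 (0.57) were the exceptions. Among genes with a wide spread were Nlrc5 (2.39), Tapbp (2.36) and Psmb9 (2.01).

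**Figure D4:**
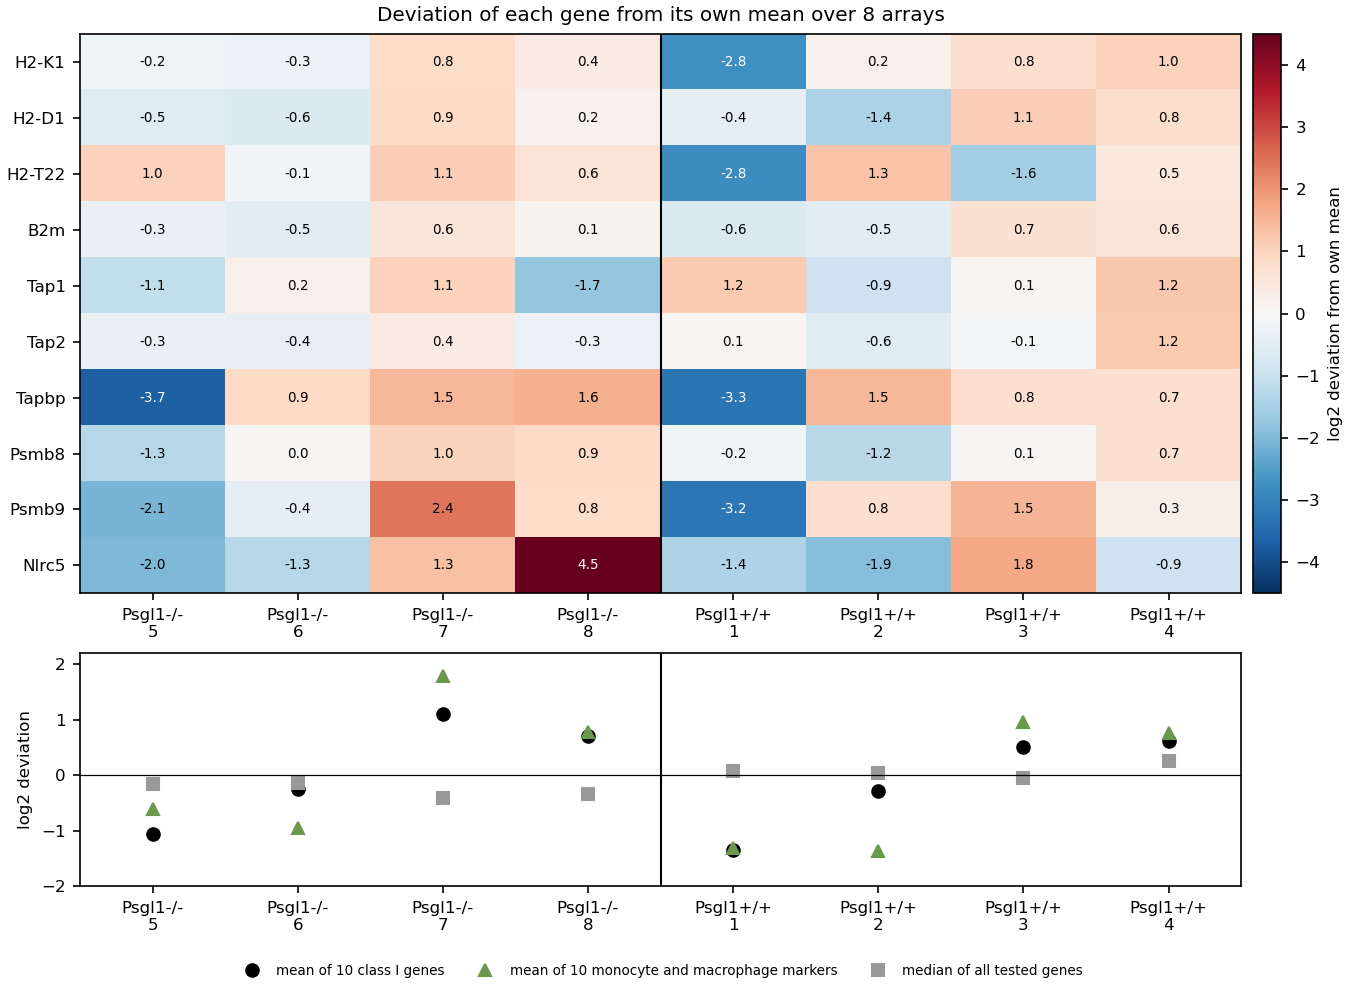
Top, log2 deviation of each gene from its own mean over 8 arrays, with Psgl1-/- arrays left of the line and Psgl1+/+ arrays right of it. Bottom, the mean deviation of the 10 class I genes (black) and of 10 monocyte and macrophage markers (green), and the median deviation of all tested genes (grey), on the same arrays. Psgl1-/- replicate 7 is above the mean for all 10 genes, and the largest deviation is that of Nlrc5 on Psgl1-/- replicate 8.

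Likeness between profiles was measured as the root-mean-square distance of log2 scaled signals over the 8 arrays, each gene centred on its own mean. The member nearest to B2m was H2-D1, at 0.40, and the members nearest to each other among the wide ones were Tapbp and Psmb9, at 0.95. Of all tested genes, 1.25% lay nearer to B2m than H2-D1 did, and 0.083% nearer to H2-D1 than B2m did. The gene outside the set nearest to B2m was Spp1, the secreted protein osteopontin, at 0.08, followed by Tpt1 (0.12) and Fth1, the ferritin heavy chain (0.13). Those nearest to Tap1 were Gm34751 (0.25), Olfr723 (0.35) and Gm15326 (0.37). Tap1 and Psmb9 were far apart, at 2.09, and for Psmb9 no other member was farther. These distances describe 8 arrays that share a slide and a scaling, and carry no test.

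Tap1 and Psmb9 start 225 bases apart on opposite strands, and the sequence between their starts is shown because Tap1 was the member farthest in profile from Psmb9, its neighbour. The stretch before H2-K1, H2-D1 and B2m is shown because H2-D1 and B2m had the closest profiles among the members. Sequences are from RefSeq, build GRCm38.p6, and 8 of the 10 genes, all but Tap2 and Nlrc5, had an entry in the promoter table. They are given 5′ to 3′ on the strand of the gene, and for the shared stretch on the plus strand, the strand of Tap1. Capitals mark matches, on either strand, to GGNNTTNCC (a kappa B site), AANNGAAA (an interferon response element), TGACG (the X2 box) and CCAAT (the Y box). The letters were chosen after the promoters had been seen, from the known layout of class I promoters.
H2-K1, chr17:34000348-34000547, minus strand: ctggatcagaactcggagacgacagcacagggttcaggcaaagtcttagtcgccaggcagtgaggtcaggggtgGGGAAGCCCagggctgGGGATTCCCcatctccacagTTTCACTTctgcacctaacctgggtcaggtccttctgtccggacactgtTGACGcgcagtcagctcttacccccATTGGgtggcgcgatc
H2-D1, chr17:35262894-35263093, plus strand: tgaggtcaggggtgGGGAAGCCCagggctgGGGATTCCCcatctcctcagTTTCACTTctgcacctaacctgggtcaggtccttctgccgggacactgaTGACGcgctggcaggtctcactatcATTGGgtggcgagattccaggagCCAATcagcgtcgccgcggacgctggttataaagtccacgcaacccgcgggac
B2m, chr2:122147487-122147686, plus strand: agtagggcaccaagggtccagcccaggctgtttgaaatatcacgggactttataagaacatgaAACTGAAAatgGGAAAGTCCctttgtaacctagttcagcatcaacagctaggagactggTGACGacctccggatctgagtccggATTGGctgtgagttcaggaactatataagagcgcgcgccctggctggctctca
Tap1 and Psmb9, chr17:34187331-34187555, plus strand: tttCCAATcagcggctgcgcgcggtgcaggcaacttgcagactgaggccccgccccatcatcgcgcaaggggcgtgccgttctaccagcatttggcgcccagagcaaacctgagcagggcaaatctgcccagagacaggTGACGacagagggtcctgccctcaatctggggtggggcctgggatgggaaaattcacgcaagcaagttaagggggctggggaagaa

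In H2-K1, H2-D1 and B2m a kappa B match, an interferon response match, an X2 match and a Y match were found before the start, and the first bases of the X2 and Y matches lay 25 bases apart in each of these 3 genes. Over windows of 300 bases around the start, the kappa B letters matched in 3 of 8 genes, against 16.0% of 32851 promoters. The interferon response letters matched in 4 of 8 genes, these 3 and H2-T22, against 23.9%. X2 letters matched in 6 of 8 against 20.8%, Y letters in 7 of 8 against 37.4%, and TTCNNNGAA, a gamma interferon site, in 1 of 8, Psmb8, against 8.3%. The stretch between Tap1 and Psmb9 held an X2 and a Y match and no match to the kappa B and interferon response letters, which says nothing of the factors that bind there. Tap1 and Psmb9 share most of their window, so the same X2 and Y matches count for both, and since the letters were chosen with the promoters in view, the shares are a description only.

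**Figure D5:**
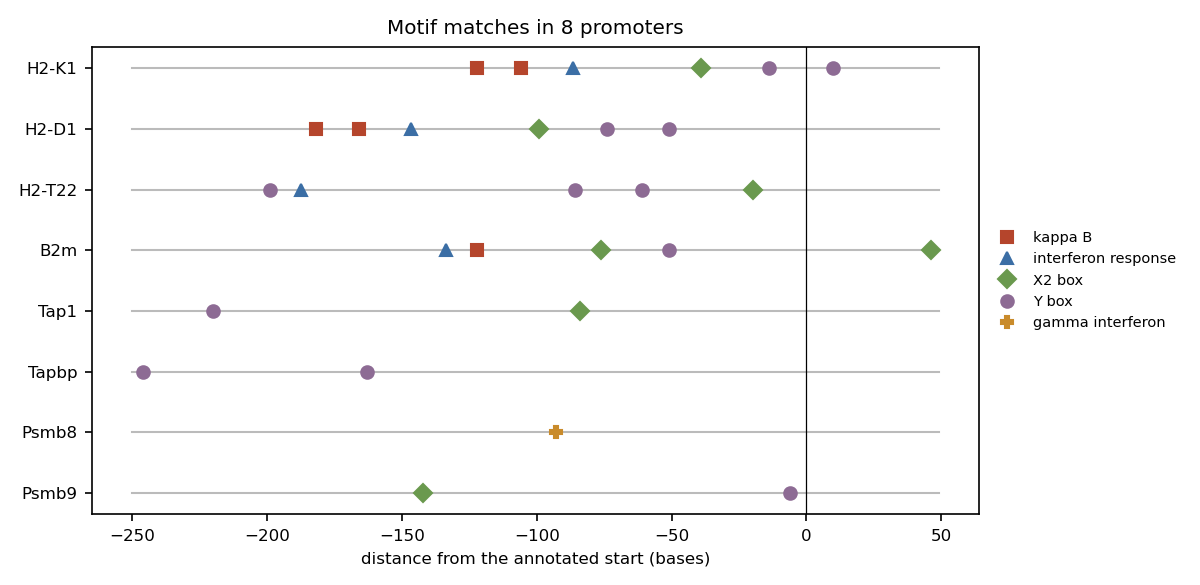
Position of motif matches (horizontal axis, bases from the annotated start, which is 0) in the promoters of 8 class I presentation genes, 1 row per gene. Symbols mark the middle of a match. H2-K1, H2-D1 and B2m carry a kappa B, an interferon response, an X2 box and a Y box match before the start, and Psmb8 carries a gamma interferon match only.

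The wider pathway was read with 8 lists of 96 genes, of which 91 were on the array and 87 were tested. With limma, 0 of 87 passed the adjusted threshold (lowest adjusted p = 0.458), and 6 had an unadjusted p under 0.05, 3 higher and 3 lower, against the 1.62% higher and 9.19% lower of all tested genes. The higher ones include Lap3, which met the filter through the Psgl1-/- group and is given no weight below. Of the other class I heavy chains 23 were tested, 13 with a positive difference (median 0.05), and H2-T9, a nonclassical heavy chain, had the largest of the named ones. It read 10.44, 10.64, 8.26 and 9.25 on Psgl1-/- arrays, against 6.71, 7.40, 8.89 and 7.55 on Psgl1+/+ arrays, a difference of 2.01 (adjusted p = 0.458, limma) with overlap. H2-M5 differed by -0.93 (-1.72 with its other probe) with overlap, and H2-M1 by -1.02 without overlap.

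Of 10 tested genes of peptide loading and entry into the endoplasmic reticulum, 5 had a positive difference (median -0.08). Calr, the chaperone calreticulin of the loading complex, differed by 1.45, Canx, calnexin, by 0.51, and the translocon gene Sec61a1 by -1.27. Of 6 immunoproteasome and activator genes, 4 were positive (median 0.97). Psme4, the nuclear activator PA200, differed by 2.35 with its brightest probe and by -1.98 and -0.74 with its other probes, and the assembly factor Pomp by 1.18. Psme3, the nuclear activator subunit PA28 gamma, read 15.43, 15.43, 15.57 and 15.21 on Psgl1-/- arrays, against 16.06, 15.81, 16.02 and 16.69 on Psgl1+/+ arrays, a difference of -0.74 without overlap (adjusted p = 0.458, limma).

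Among the constitutive catalytic subunits, Psmb6 read 11.64, 14.00, 12.05 and 13.25 on Psgl1-/- arrays, against 12.21, 9.97, 10.25 and 11.50 on Psgl1+/+ arrays, a difference of 1.76 (adjusted p = 0.458, limma), and Psmb7 differed by 0.53 (1.30 with its other probe). Of 6 cytosolic peptidases, which trim or destroy peptides, 3 were positive (median 0.14). Lap3, leucine aminopeptidase, read 6.70, 7.91, 7.62 and 7.01 on Psgl1-/- arrays, against 2.06, 1.28, 2.36 and 5.95 on Psgl1+/+ arrays. All 4 Psgl1-/- arrays lay above all 4 Psgl1+/+ arrays, of which only 1 was well above background. Lap3 thus met the filter of 4 arrays through the Psgl1-/- group, where it is high, and a filter met in this way favours that direction. No weight is put on the separation, and the fitted difference of 4.40 (adjusted p = 0.458, limma) is uncertain in size.

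Of 22 regulators of class I genes, 11 were positive (median 0.06). Irf1, a transcription factor induced by interferon, differed by -0.86 with its brightest probe and by 1.27 with its other probe, Irf8 by 0.71 and 2.19 in the same order, and the interferon receptor subunit Ifngr2 by 2.53. Ciita, the class II counterpart of Nlrc5, differed by -1.41 with its brightest probe and by -1.51 to 0.59 with 6 others. Class II presentation had 3 positive of 10 (median -0.16), with H2-Ab1 at 2.05, H2-Eb1 at -2.25 and H2-Ob at -0.58 (-0.51 with its other probe), the last without overlap. Of 8 tested receptors for class I, 2 were positive (median -0.47), among them Klra2 at 2.28. Pirb, an inhibitory receptor of myeloid cells, differed by -0.51 with its brightest probe, also without overlap, and by -0.68 and 4.27 with others. Over all tested genes, 10.8% were lower without overlap. None of the genes in this paragraph passed the adjusted threshold.

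Markers of other cells were read beside these genes, since class I is expressed by nearly all of them. Of 8 neutrophil markers 7 were well above background on all arrays, and their summed scaled signal ran from 5626 to 12069 on Psgl1-/- arrays and from 1421 to 8261 on Psgl1+/+ arrays. S100a9 read 12.54, 11.61, 12.97 and 12.70 on Psgl1-/- arrays, against 5.71, 9.04, 11.42 and 4.49 on Psgl1+/+ arrays, without overlap (difference 4.79, adjusted p = 0.458, limma), while the other 7 overlapped. Of the 8 neutrophil markers 4 had a positive difference (median 0.14). Ly6g, whose product the sort gated against, differed by 2.398 with overlap (adjusted p = 0.527, limma), Elane by -0.26 and Cxcr2 by -0.30. Ly6g was well above background on 4 Psgl1-/- arrays and 3 Psgl1+/+ arrays. The sums of T cell markers (8 tested) ran from 3486 to 5098 on Psgl1-/- arrays and from 5374 to 10363 on Psgl1+/+ arrays, and those of B cell markers (5 tested) from 22113 to 29891 on Psgl1-/- arrays and from 33654 to 39696 on Psgl1+/+ arrays, also without overlap. Singly, 0 of 8 T cell and 1 of 5 B cell markers lay apart without overlap, with median differences of -0.49 and -0.54, beside the shift of -0.33 and the 10.8% lower without overlap over all genes. Sums of 10 tested neuronal, astrocyte and endothelial markers ran from 102011 to 130122 on Psgl1-/- arrays and from 144234 to 224790 on Psgl1+/+ arrays, with 3 of the 10 markers apart without overlap (median difference -0.29). Such sums lean on bright markers and do not speak for a whole list. Cd79a (means 13.78 on Psgl1-/- and 14.40 on Psgl1+/+ arrays) and Syt1 (15.53 and 16.10) were bright and lower without overlap.

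The sums of the other marker lists overlapped between the groups. The monocyte and macrophage sum ran from 47829 to 154071 on Psgl1-/- arrays and from 50007 to 141200 on Psgl1+/+ arrays, and that of 8 microglia markers from 57341 to 102366 on Psgl1-/- arrays and from 64722 to 126949 on Psgl1+/+ arrays. NK cell markers (6 tested) gave 1019 to 2009 on Psgl1-/- arrays and 993 to 1501 on Psgl1+/+ arrays, and conventional dendritic cell markers (6 tested) gave 1805 to 4768 on Psgl1-/- arrays and 3382 to 11108 on Psgl1+/+ arrays. Singly, 2 of 6 dendritic cell markers and 1 of 8 microglia markers were lower in Psgl1-/- arrays without overlap, beside 10.8% of all genes. For the monocyte and macrophage list this was 0 of 10 and for the NK cell list 0 of 6. No marker of these lists passed the adjusted threshold. The part of other cells in the class I readings was not tested.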

How the data were processed

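RNA of 8 sorted samples, 4 per genotype, was read on 8 arrays of 1 slide. Per the file headers, the deposited scanner files hold intensities from single-colour Agilent arrays (Feature Extraction 11.5.1.1), corrected for background within each array, with probe positions in mm9. Per the labels' protocols, cRNA was made from total RNA with random primers in a low-input kit and labelled with Cy3. The scale of the deposited value table of intensities is not stated. Its columns correlated at 0.9977 or more with their own array, at 0.8085 or less with others, and shared a median of 132.9. Direction and scale thus match linear scanner intensities after quantile normalization, and no centring of genes was found.

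Control spots and outlier spots were left out, repeated spots of a probe were averaged (none was saturated), and log2 signals were scaled to the 75th percentile of each array. RefSeq accessions named 31064 of 60273 probes, current symbols 8935 and older symbols 420. Each gene was represented by its probe with the highest mean. Genes with a signal well above background on 4 or more of 8 arrays were tested with limma 3.58.1 (R 4.3.3), Benjamini-Hochberg adjustment and a two-sided threshold of 0.05, without covariates. Probes were also tested singly (51378 tested, 9 past the threshold, 0 of them class I probes), and subunit pairs by exact permutation tests. The fit was tested on simulated data. Of 12 class I probes, 10 are marked as unmapped in the files. The number of arrays limits the precision.

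The class I genes, the 8 pathway lists, the 8 marker lists and the tests were chosen with earlier results of these data known. Named were all class I genes, the 2 genes of each other list with the smallest p in each direction, of which a selection is printed, the catalytic pairs, and the 3 genes nearest to B2m and to Tap1. Alternatives were other scalings, normexp with an offset of 50, the value table, other filters, the mean over probes, the slide row and leaving out each array. Python 3.11.15, numpy 2.4.6, pandas 2.3.3, scipy 1.17.1 and matplotlib 3.10.9 were used.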

Additional observations from a re-analysis of the deposited data

Results flagged for a closer look

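Of 24 groups of 4 array values, 2 for each class I probe, 3 held an array whose gap to the nearest of the others took up nearly the whole range of the group, and chance flags about 1 in 20 groups. Tapbp was flagged in both groups, at 8.26 on Psgl1-/- replicate 5 and at 8.65 on Psgl1+/+ replicate 1, each far below the other 3 arrays of its group. Tap2 was flagged at 14.74 on Psgl1-/- replicate 7, where the other 3 arrays lay between 14.00 and 14.10.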

How the results depend on the processing

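In all 19 alternatives 0 of 10 class I genes and 0 of the pathway genes passed the adjusted threshold (limma, lowest adjusted p of a class I gene 0.501), and at most 1 class I gene had an unadjusted p under 0.05, so no call changed. Over all genes the calls ran from 0 to 10, against 1. Of 190 class I differences under alternatives, 149 kept their direction and 41 reversed. In 3 settings (no filter, the filter at 8 arrays and the slide row block) the values equal the reported ones by construction, which leaves 119 of 160 that kept it. For the reversals the cause was not tested. H2-D1 reversed with quantile normalization (0.25), array median (0.11), cyclic loess (0.32), normexp (0.25), the value table (0.25) and within the first slide row, that of replicates 2, 4, 6 and 8 (0.11). B2m reversed in the same order of the first 5 settings at 0.38, 0.062, 0.34, 0.43 and 0.38, with the mean over probes, which takes in the clone probe, at 0.077 and within the second row at 0.078. Tap2 reversed with quantile normalization (0.082), cyclic loess (0.091), normexp (0.060), the value table (0.084) and within the second row (0.014). Within the first row H2-K1 (-0.58), H2-T22 (-0.63) and Psmb9 (-0.34) reversed, and within the second row Psmb8 (-0.073) and Nlrc5 (-0.53). Psmb10 minus Psmb7 reversed with quantile normalization (-0.031), normexp (-0.10), the value table (-0.022), the mean over probes (-0.16) and within the second row (-0.42), and Psmb9 minus Psmb6 within the second row (0.39).

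When each array was left out in turn, 3 to 9 of the 10 differences were positive. The differences then ran from -0.49 to 0.78 for H2-K1, -0.52 to 0.33 for H2-D1, -0.31 to 0.13 for B2m, -0.55 to 0.028 for Tap2, -0.92 to 1.42 for Tapbp, -0.040 to 0.79 for Psmb8, -0.68 to 1.09 for Psmb9, -0.054 to 2.12 for Nlrc5, 0.60 to 1.96 for H2-T22 and -1.25 to -0.32 for Tap1. Psmb10 minus Psmb7 ran from -0.22 to 0.88, Psmb9 minus Psmb6 from -2.85 to -0.60 and Psmb8 minus Psmb5 from -3.17 to -1.42. The median difference of all genes was -0.17 with quantile normalization, -0.18 with the array median and -0.01 with cyclic loess, against -0.33. No paired analysis was possible because the groups share no replicate number. Groups lay in different slide columns, so the 2 cannot be told apart. Signal close to background limits the second probes of B2m and Psmb9, Psmb5, Lap3 and the low readings of Nlrc5.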
